A study of Acipenser schrenckii with 6 samples.

Results

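Sugar, zinc and vitamin transporters and metallothioneins were described in gut tissue of Amur sturgeon (Acipenser schrenckii). The loci were taken by the words of their annotated product, and these words were chosen with earlier results of these data known. The words covered facilitated glucose transporters, sodium/glucose and sodium/myo-inositol cotransporters, zinc, copper, folate, thiamine, riboflavin and vitamin C transporters, and metallothioneins. Of the 82023 features in the table, 74 matched, and 3 of the 11 search terms, those for copper and for vitamin C transporters, matched 0 features because those families carry other names here. Some loci of the matched families, zinc exporters among them, also carry other names and are described at the end. The matched loci were 26 facilitated glucose transporters (GLUT), 7 sodium-coupled sugar and inositol transporters, 22 zinc importers of the ZIP family, 6 zinc exporters of the ZnT family, 5 folate, 3 thiamine and 3 riboflavin transporters, and 2 products that hold the word metallothionein. There were 3 gut libraries from sturgeon fed fresh Limnodrilus, a tubificid worm raised in the fishes' water source, for 30 days and 3 from sturgeon fed commercial feed for 30 days. Fish of both diets came from artificial breeding, shared a similar genetic background and lived in net cages before release into a river. The study asked whether feeding the worm before release alters gene expression. Whether each library stands for 1 fish or a pool is not given in the labels, and the p-values therefore describe the scatter among these 6 libraries, part of which may be technical.

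In the vertebrate intestine, sugars, metals and water-soluble vitamins cross the epithelium through transporters of the solute carrier families, because these molecules do not pass lipid membranes by themselves. Sodium-coupled carriers on the brush border draw sugar in against its gradient, using the sodium gradient that the basolateral sodium pump keeps up, and facilitated carriers let sugar flow down its gradient, out to the blood or into organelles. ZIP proteins move zinc into the cytosol, ZnT proteins move it out of the cytosol into organelles or out of the cell, and metallothioneins bind zinc and copper inside the cell. Sturgeons have a duplicated genome, and many of these proteins are encoded here by a pair of loci.

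Total depth, recovered from the table, was 13.9, 19.7 and 17.0 M reads in Limnodrilus libraries 1, 2 and 3, against 10.3, 9.95 and 10.5 M reads in commercial feed libraries 1, 2 and 3. The commercial feed libraries stood far apart from each other. Mitochondrial features took 23.7% of the reads of commercial feed library 1 and 2.06% to 6.42% of those of the other 5 libraries. Features named for rRNA or tRNA took 0.415%, 0.201% and 0.371% of the reads in Limnodrilus libraries 1, 2 and 3, against 2.91%, 2.47% and 0.988% in commercial feed libraries 1, 2 and 3, without overlap. They were found by words in the name, which can also match proteins that act on these RNAs and mitochondrial features. With FPKM recomputed without the features so named and the mitochondrial features, 10 of the 11 loci called below were called again, all but the GLUT1-like LOC117432224 (adjusted p 0.0625 by limma). Of 25 enterocyte marker features, 19 averaged 1 FPKM or more over the 6 libraries. The mean level of these 19 on the log2(FPKM + 1) scale was 4.98, 5.52 and 5.08 in Limnodrilus libraries 1, 2 and 3, against 1.95, 3.32 and 4.82 in commercial feed libraries 1, 2 and 3. The summed level of all 25 was 2001 to 8453 FPKM with Limnodrilus and 90.8 to 2506 FPKM with commercial feed, with 0 to 2 of them at 0 in a Limnodrilus library and 3 to 5 in a commercial feed library. Most of the Limnodrilus sum was intestinal fatty acid-binding protein LOC117409347, at 1295, 7431 and 2962 FPKM, against 31.5, 93.5 and 749 FPKM with commercial feed. In commercial feed library 3, meprin beta LOC117399984 added 944 FPKM. Of 21 smooth muscle markers, the 17 averaging 1 FPKM or more ran the other way between the feed libraries. Their mean level was 5.85, 5.39 and 5.37 in the Limnodrilus libraries, against 6.89, 6.13 and 3.73 in the commercial feed libraries. Summed levels of all 21 smooth muscle markers were 2292 to 3266 FPKM with Limnodrilus and 643 to 8167 FPKM with commercial feed. The mean level of the epithelial markers thus differed with diet and, within commercial feed, from library to library. Single markers were uneven. Of the 19, 9 lay higher in every Limnodrilus library and 0 lower in every one, where 28.4% and 11.5% of all features averaging 1 FPKM or more did. The part of these markers in the results below was not tested. In bulk tissue, fewer cells of a type and less RNA per cell cannot be told apart.

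Of the 74 loci, 48 reached the mean of 1 FPKM over the 6 libraries needed for testing (FPKM: fragments per kilobase of feature per 1 M of the library). This filter, used for all features, can be passed through 1 diet alone. The called loci LOC117420416, LOC117964781, LOC117425557 and LOC117405250 averaged 0.147, 0.443, 0.689 and 0.797 FPKM with commercial feed. In the other direction, LOC117432243, not called, averaged 0.703 FPKM with Limnodrilus. A locus is called below where its adjusted p lies under 0.05 in limma's test on log2(FPKM + 1), adjusted over all 23644 features tested. With Limnodrilus, 11 of the 48 tested loci were called higher (22.9%), where 14% of all tested features were, and 0 were called lower, where 3.64% of all were; 17.7% of all were called in either direction. Without the adjustment, 18 loci had a p under 0.05 and were higher and 4 were lower. The share of all features under that p was not computed, here or for the lists below, so these counts have no background. Limma-voom on recovered reads called 9 higher and 0 lower. Over all 23644 features it called 2667 higher and 768 lower, which is also the background of the limma-voom counts below. The 3 Limnodrilus libraries lay above all 3 commercial feed libraries at 18 of the 48 loci, where 28.4% of all tested features did so, and below all of them at 3 loci, where 11.5% did. The median log2 fold change, Limnodrilus minus commercial feed, was 0.77 over the 48 loci and 0.24 over all tested features. Median-of-ratios scaling moved the median of all features to 0.01 and the share of higher calls among all calls to 60%, from 79.4%; quantile normalization moved them to -0.03 and 58.3%. By kind of cargo, 4 of 18 tested sugar transporters, 5 of 20 zinc transporters and 2 of 9 vitamin transporters were called higher.

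**Figure D1:**
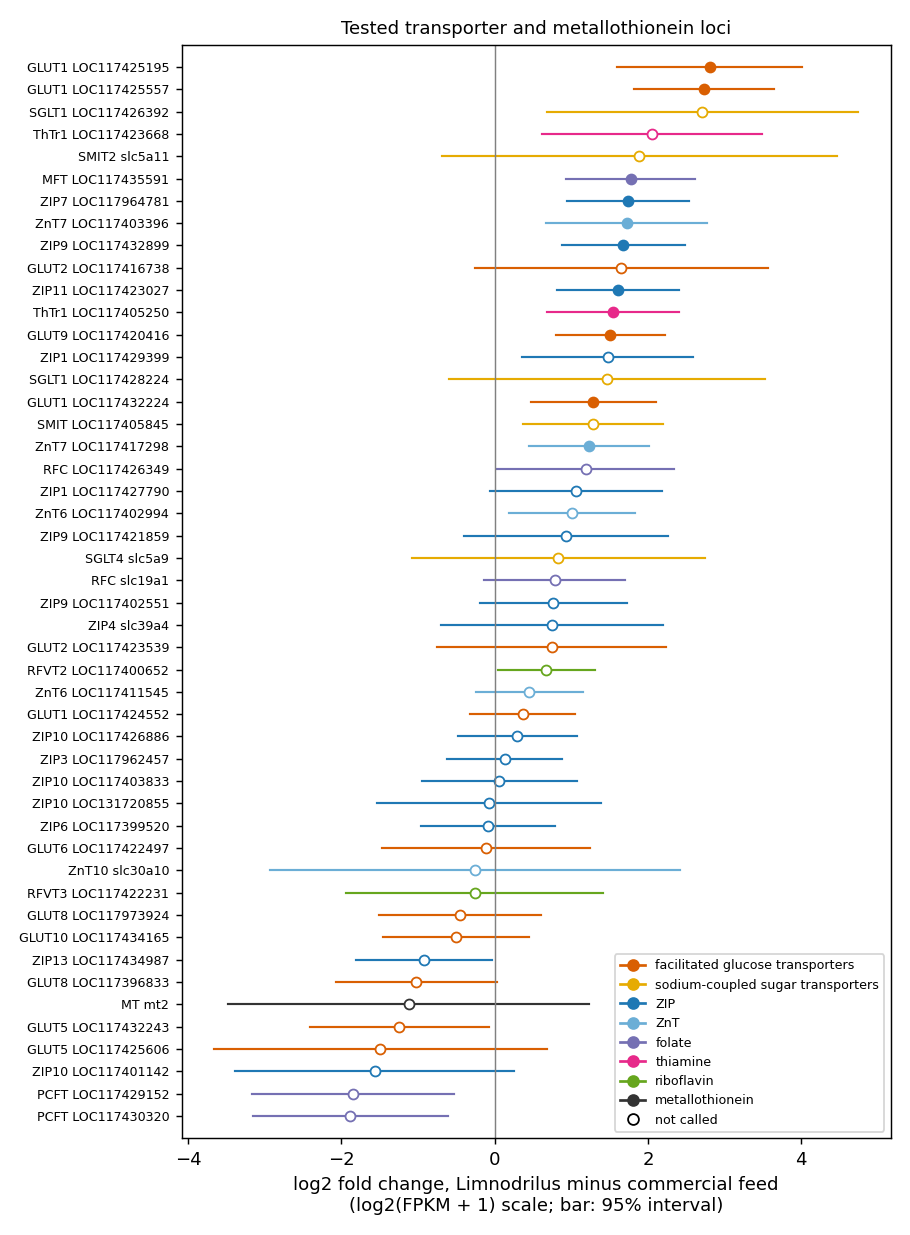
Log2 fold change, Limnodrilus minus commercial feed, of the 48 tested loci on the log2(FPKM + 1) scale, with 95% intervals from limma (n = 3 libraries per diet). Filled points are the 11 called loci, all to the right of 0; both proton-coupled folate transporters (PCFT) lie farthest to the left and were not called.

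The number of called loci depended on single libraries. Commercial feed library 1 lay below the range of the Limnodrilus libraries at 39 of the 48 loci, commercial feed library 2 at 31 and commercial feed library 3 at 21, and library 3 lay above that range at 15 loci. It was the highest of the commercial feed libraries at 37 loci. The shares of all tested features in these positions were not computed, so these counts have no background and are not a trait of the transporters. Without commercial feed library 3, 18 loci were called, and without commercial feed library 2 there were 2. Over all 23644 tested features, the calls moved too. There were 4883 higher and 1412 lower without library 3, and 1479 higher and 383 lower without library 2. Without Limnodrilus library 1, 2 or 3, the called loci numbered 2, 1 and 1, in fits where the calls over all features fell to 739, 707 and 638, against 4182 with all libraries. The GLUT1-like locus LOC117425557 was called in each of the 17 alternatives run. These include the sum over loci of the same product, where the value is that of all GLUT1 loci together. All 11 called loci kept a positive fold change in every alternative that tested them. The diets did not overlap at any of the 11. Leaving out libraries or changing the pseudocount, filter, trend or block therefore could not turn that sign.

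Sodium-coupled carriers, the entry step of glucose, included the most abundant sugar transporters by mean FPKM over the 6 libraries, and 0 of the 5 tested were called. Without the adjustment 2 of the 5 had a p under 0.05, and limma-voom called 0. SGLT1, which carries glucose and galactose with sodium across the brush border, had 2 loci. LOC117426392 (NC_081199.1, 2418169 to 2431259) had 47.8, 188 and 41.6 FPKM in Limnodrilus libraries 1, 2 and 3, against 6.84, 3.65 and 37.4 FPKM in commercial feed libraries 1, 2 and 3. The groups did not overlap, but commercial feed library 3 came close to the lowest Limnodrilus library. The log2 fold change was 2.71 ± 0.88 (SE, n = 3 per diet), with an adjusted p of 0.0698 by limma. It was 3.60 with an adjusted p of 0.0136 without commercial feed library 3, 2.08 with 0.188 without commercial feed library 2, and 2.03 with 0.209 without Limnodrilus library 2. The Limnodrilus mean of this locus was 92.4 FPKM, and 44.7 FPKM without library 2. Its sister locus LOC117428224 (NC_081209.1, 2307710 to 2320491) had 27.2, 69.9 and 21.7 FPKM with Limnodrilus, against 3.12, 9.48 and 49.0 FPKM with commercial feed, where library 3 fell inside the Limnodrilus range. Its log2 fold change was 1.47 ± 0.89, with an adjusted p of 0.286 by limma.

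The pair of SGLT1 loci did not keep one ratio. LOC117426392 was 1.76, 2.69 and 1.91 times as high as LOC117428224 in Limnodrilus libraries 1, 2 and 3, and 2.19, 0.385 and 0.763 times as high in commercial feed libraries 1, 2 and 3, so the order of the copies turned in 2 of the 3 commercial feed libraries. Reads that match both copies could be split between them, and values of single copies are uncertain to that extent.

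Inositol and other sodium-coupled carriers overlapped between diets, apart from 1 low locus. The locus slc5a11, a sodium/myo-inositol cotransporter (SMIT2), had 43.5, 52.8 and 32.3 FPKM with Limnodrilus, against 0.586, 20.7 and 45.0 FPKM with commercial feed. The cotransporter 4 gene slc5a9, whose human protein carries mannose and fructose besides glucose, had 14.6, 12.4 and 14.4 FPKM with Limnodrilus, against 1.58, 5.70 and 31.9 FPKM with commercial feed. In both genes commercial feed library 1 was the lowest of all 6 libraries by far, and library 3 passed the Limnodrilus range in slc5a9 and fell within it in slc5a11. The order of the commercial feed libraries, lowest in 1 and highest in 3, was also that of the mean enterocyte marker level. It recurred in slc39a4, slc30a10, the ZIP10 locus LOC117401142 and both PCFT loci described below. Of the commercial feed libraries, library 1 was lowest at 36 of the 48 tested loci and library 3 highest at 37. Library 2 was lowest at 11 and highest at 8, so the order failed at many loci. Among those without it were LOC117426392 and the called loci LOC117425557, LOC117432224, LOC117420416, LOC117435591 and LOC117417298. The other called loci kept the order. The share of all features with this order was not computed, and a link to the markers was not tested. The other inositol cotransporter, LOC117405845, was low, at 2.33, 3.90 and 1.399 FPKM with Limnodrilus, against 0.0989, 0.274 and 0.942 FPKM with commercial feed; it was higher in every Limnodrilus library, with a log2 fold change of 1.28 ± 0.39 and an adjusted p of 0.0601 by limma. Both loci of SGLT2, the carrier of the mammalian kidney, were listed at 0 in all 6 libraries.

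GLUT1, a glucose carrier found in most cell membranes, had 5 loci, and 3 of its 4 tested ones were called higher. LOC117425557 (NC_081208.1, 6830527 to 6857610) had 9.46, 15.7 and 6.51 FPKM in Limnodrilus libraries 1, 2 and 3, against 0.506, 0.333 and 1.23 FPKM in commercial feed libraries 1, 2 and 3. Every Limnodrilus library stood well above every commercial feed library. The log2 fold change was 2.73 ± 0.39 (SE, n = 3 per diet), with an adjusted p of 0.00921 by limma.

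A second GLUT1-like locus on the same sequence, LOC117425195 (NC_081208.1, 17745724 to 17756985), had 10.1, 21.0 and 11.5 FPKM with Limnodrilus, against 0.397, 0.461 and 3.40 FPKM with commercial feed. Here too the groups were apart, with commercial feed library 3 nearest to the Limnodrilus libraries. Its log2 fold change of 2.80 ± 0.52 had the largest size of the 48 on the log2(FPKM + 1) scale, with an adjusted p of 0.0154 by limma. That p was 0.0532 without commercial feed library 2 and 0.0557, 0.0663 and 0.0604 without Limnodrilus library 1, 2 or 3. The rank depended on the scale. At a pseudocount of 0.1 the fold change was 3.77, against 3.83 for LOC117425557. By limma-voom it was 3.93, against 4.72 for the thiamine transporter locus LOC117423668. The mean commercial feed level of this locus was 1.42 FPKM, and 0.429 FPKM without library 3.

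The most abundant GLUT was another GLUT1-like locus, LOC117432224 (NC_081215.1, 6514679 to 6541902). It had 31.8, 34.6 and 19.9 FPKM with Limnodrilus, against 13.7, 9.52 and 9.85 FPKM with commercial feed, and the groups did not overlap. Its log2 fold change was 1.29 ± 0.35, with an adjusted p of 0.0434 by limma, and 0.99 with an adjusted p of 0.135 under median-of-ratios scaling; the adjusted p was 0.105 under quantile scaling and 0.0518 with no filter. Without Limnodrilus library 1, 2 or 3 the adjusted p was 0.158, 0.137 and 0.0814, and without commercial feed library 2 it was 0.106. LOC117425557 ran at 0.298, 0.455 and 0.327 times the level of LOC117432224 in the Limnodrilus libraries and at 0.0370, 0.0350 and 0.125 times that level in the commercial feed libraries, with no overlap. The fourth locus, LOC117424552, had 2.54, 2.95 and 1.904 FPKM with Limnodrilus, against 1.27, 1.97 and 1.82 FPKM with commercial feed, and was not called.

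GLUT9, which moves urate in mammals, was called higher at the single locus matched by the search terms, LOC117420416 (NC_081189.1, 103471458 to 103627947). It had 1.95, 2.16 and 2.60 FPKM with Limnodrilus, against 0.0557, 0 and 0.384 FPKM with commercial feed, and was near 0 in each commercial feed library. The log2 fold change was 1.51 ± 0.31, with an adjusted p of 0.0190 by limma, and 0.0592 to 0.0742 without one of the Limnodrilus libraries.

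GLUT5, the fructose carrier of the mammalian brush border, had lower mean levels with Limnodrilus at both tested loci. LOC117432243 (NC_081215.1, 3846502 to 3859018) had 0.413, 1.19 and 0.509 FPKM with Limnodrilus, against 1.34, 2.17 and 7.28 FPKM with commercial feed. Every Limnodrilus library lay below every commercial feed library, yet the log2 fold change of -1.24 ± 0.50 had an adjusted p of 0.126 by limma. The other GLUT5 locus in use, LOC117425606 (NC_081208.1, 4165356 to 4177233), had 0.489, 4.69 and 1.58 FPKM with Limnodrilus, against 1.69, 4.20 and 33.8 FPKM with commercial feed. Its commercial feed mean was 13.2 FPKM, and 2.95 FPKM without library 3, so that 1 library sets most of it. The remaining 2 GLUT5 loci had at most 0.134 FPKM in any library.

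GLUT2, which in mammals passes hexoses across the basolateral membrane, rested on a single Limnodrilus library. LOC117416738 had 0.294, 12.7 and 0.751 FPKM in Limnodrilus libraries 1, 2 and 3 and was listed at 0 in all 3 commercial feed libraries. Against a floor of 3 reads per commercial feed library, its mean with Limnodrilus was at least 26.9-fold higher, and that mean was 4.59 FPKM with and 0.522 FPKM without Limnodrilus library 2. LOC117423539 likewise had 0.354, 4.52 and 0.804 FPKM with Limnodrilus, against 0, 0 and 1.88 FPKM with commercial feed. Neither GLUT2 locus was called, with adjusted p of 0.200 and 0.451 by limma.

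GLUT8, an intracellular carrier, made up much of the GLUT total and was not called. LOC117973924 had 8.80, 5.34 and 12.4 FPKM with Limnodrilus, against 7.41, 10.97 and 20.1 FPKM with commercial feed. LOC117396833 had 5.71, 2.59 and 6.78 FPKM with Limnodrilus, against 5.97, 14.3 and 13.6 FPKM with commercial feed. Each GLUT8 locus overlaps an F-box/WD repeat-containing protein 2 locus that was not called either, and the use of strand in counting is not given in the sources used here. GLUT10 and GLUT6 each had 1 tested locus, neither called; GLUT4, the insulin-responsive carrier of mammalian muscle and fat, had 2 loci at 0.409 FPKM or less in any library. All 6 GLUT11 loci matched by the search terms fell short of the filter.

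**Figure D2:**
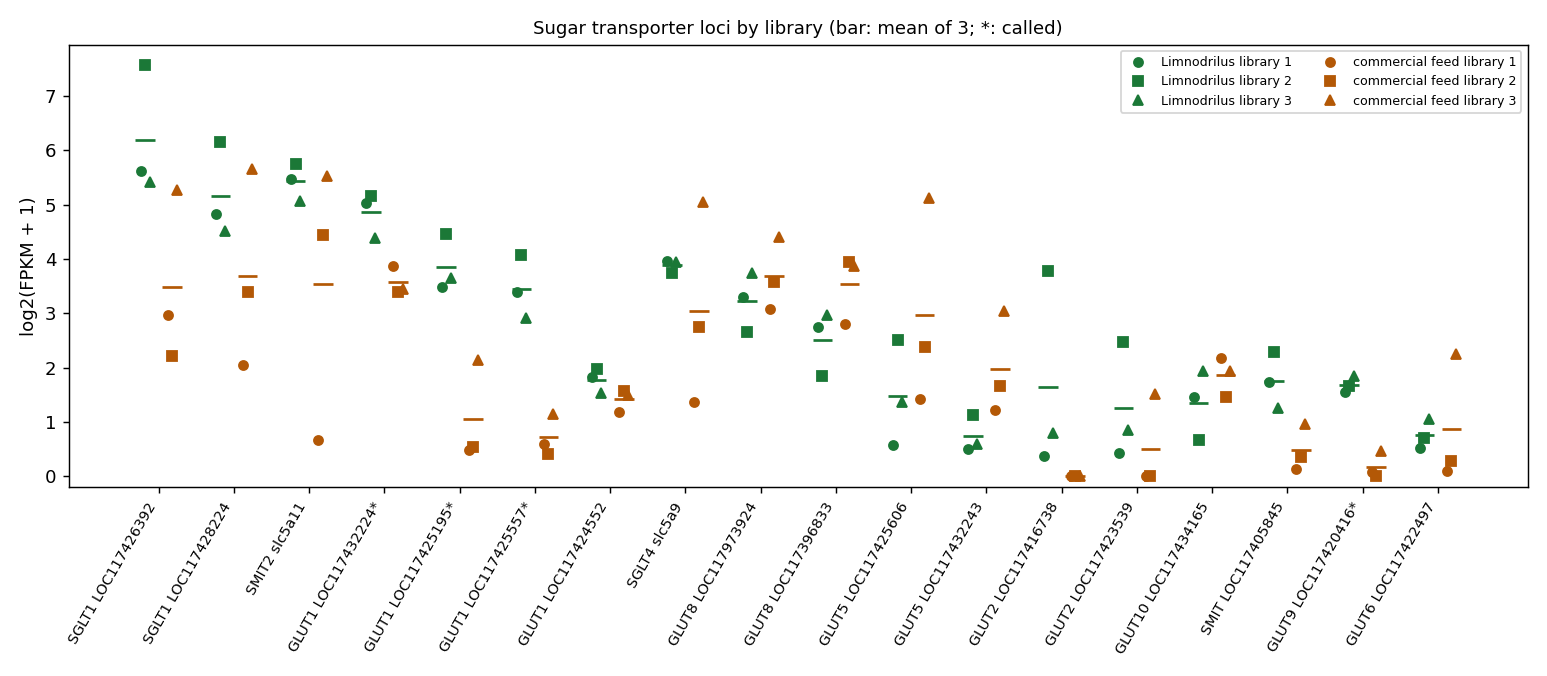
Log2(FPKM + 1) of the 18 tested sugar transporter loci in each library; points are libraries, bars are means of 3, and asterisks mark called loci. The 3 called GLUT1 loci stand higher in the Limnodrilus libraries, the fourth, LOC117424552, overlaps, and commercial feed library 3 (triangles) sits above the Limnodrilus libraries in slc5a9 and GLUT5 and near or within their range in SGLT1.

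The make-up of the GLUT family differed between diets. GLUT1 loci held 70.1%, 66.3% and 53.9% of the summed GLUT FPKM in Limnodrilus libraries 1, 2 and 3, against 42.3%, 26.1% and 15.7% in commercial feed libraries 1, 2 and 3. GLUT8 loci held 18.9%, 7.08% and 25.9% with Limnodrilus, against 35.6%, 53.9% and 32.5% with commercial feed, and GLUT5 loci held 1.17%, 5.25% and 2.87%, against 8.09%, 13.8% and 39.5%. For all 3 kinds the shares of the diets did not overlap, while the summed GLUT level did, at 73.9 to 112 FPKM with Limnodrilus and 37.5 to 104 FPKM with commercial feed. Summed levels of the GLUT8 loci and of the GLUT5 loci overlapped between diets too, and those of the GLUT1 loci did not. These shares use the same values as the folds above.

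Some partners of sugar uptake rose as well. The list held the sodium pump, disaccharidases, hexokinases, enzymes of fructose and glucose handling, thioredoxin-interacting protein and carbohydrate-responsive element-binding protein. Of its 30 tested features, 9 were called higher and 1 lower, with a median log2 fold change of 0.97, against background shares of 14% and 3.64%. The higher calls include both thioredoxin-interacting protein loci, and the tested disaccharidases were not called. The sodium pump beta-1-like locus LOC117407004, a subunit of the pump that maintains the sodium gradient, had 229, 421 and 206 FPKM with Limnodrilus, against 17.0, 8.39 and 29.7 FPKM with commercial feed, a log2 fold change of 3.98 ± 0.52 with an adjusted p of 0.00818 by limma. A second beta-1-like locus, LOC117405621, had a log2 fold change of 3.57 ± 0.63. The pump's most abundant catalytic locus, LOC117962776, had 184, 255 and 149 FPKM with Limnodrilus, against 62.5, 72.3 and 194 FPKM with commercial feed, and was not called. The less abundant catalytic loci LOC117406749 and LOC117406750, outside the naming rule, were called higher, with log2 fold changes of 2.54 and 1.37. The other tested catalytic loci were not called. Thioredoxin-interacting protein (LOC117395562), whose mammalian counterpart is induced by glucose and lowers GLUT1 at the cell surface, had 206, 296 and 226 FPKM with Limnodrilus, against 37.8, 41.0 and 39.9 FPKM with commercial feed, a log2 fold change of 2.57 ± 0.33 with an adjusted p of 0.00788 by limma. The single lower one was g6pc3, a glucose-6-phosphatase found in most tissues, with a log2 fold change of -1.35; it falls outside the naming rule and was chosen after its value was seen.

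Zinc exporters of the ZnT family load zinc into the secretory pathway, and both ZnT7 loci, which serve the Golgi, were called higher. LOC117403396 (NC_081198.1, 14597640 to 14637523) had 26.3, 24.5 and 35.9 FPKM with Limnodrilus, against 5.12, 5.92 and 15.8 FPKM with commercial feed. LOC117417298 (NC_081200.1, 26661949 to 26705256) had 5.98, 6.45 and 8.47 FPKM with Limnodrilus, against 1.38, 3.20 and 2.77 FPKM with commercial feed. In both copies every Limnodrilus library lay above every commercial feed library. The log2 fold changes were 1.73 ± 0.45 and 1.24 ± 0.34 (SE, n = 3 per diet), with adjusted p of 0.0385 and 0.0433 by limma. Both calls were lost without any one of the Limnodrilus libraries or without commercial feed library 1 or 2, with adjusted p of 0.0792 to 0.137 for LOC117403396 (0.0592 with no filter) and 0.0639 to 0.162 for LOC117417298. LOC117417298 was called in 4 of the 17 alternatives, and its adjusted p was also 0.0509 at a pseudocount of 0.1, 0.0714 with no filter, 0.0582 and 0.0554 under median-of-ratios and quantile scaling, and 0.0608 by limma-voom. The commercial feed mean of LOC117403396 was 8.95 FPKM, and 5.52 FPKM without library 3.

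The other ZnT loci matched by the search terms were not called. Further loci of this family carry SLC30 names and are described at the end. Of these, LOC117403105, LOC117411303, LOC117429036 and LOC117403117 were called higher, and the other tested ones were not called. ZnT6, a subunit of a zinc-loading complex of the secretory pathway, had 9.93, 12.5 and 9.71 FPKM at LOC117402994 with Limnodrilus, against 4.61, 3.14 and 7.36 FPKM with commercial feed; the groups did not overlap and the adjusted p was 0.0879 by limma. The gene slc30a10, annotated as zinc transporter 10 and a manganese exporter in humans, had 5.10, 16.1 and 3.51 FPKM with Limnodrilus, against 0.414, 12.6 and 40.5 FPKM with commercial feed. Its commercial feed libraries spanned the whole range, the lowest and the highest of all 6. The gene slc30a2 had at most 0.124 FPKM in any library.

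Among the ZIP importers, 3 of 15 tested loci were called higher (20%, where 14% of all tested features were). ZIP7, which releases zinc from the endoplasmic reticulum, had 2.44, 4.46 and 4.65 FPKM at LOC117964781 (NC_081229.1, 6937854 to 6961224) with Limnodrilus, against 0.256, 0.266 and 0.806 FPKM with commercial feed. All 3 commercial feed libraries were below 1 FPKM. The log2 fold change was 1.74 ± 0.34, with an adjusted p of 0.0177 by limma and 0.0523 to 0.0750 without Limnodrilus library 2 or 3 or commercial feed library 2. The second ZIP7 locus, LOC117433919, missed the filter, at 1.34, 1.35 and 1.39 FPKM with Limnodrilus, against 0.496, 0.0936 and 0 FPKM with commercial feed.

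ZIP9, which acts at the Golgi and the plasma membrane, had 3 tested loci. LOC117432899 (NC_081206.1, 17280485 to 17291209) had 5.46, 7.53 and 7.96 FPKM with Limnodrilus, against 0.898, 1.25 and 2.50 FPKM with commercial feed, with no overlap. Its log2 fold change was 1.68 ± 0.34, with an adjusted p of 0.0193 by limma; the most abundant ZIP9 locus, LOC117421859, had 13.7, 17.5 and 18.7 FPKM with Limnodrilus, against 2.77, 10.04 and 17.5 FPKM with commercial feed, and was not called. Summed over these 2 ZIP9-like loci, the log2 fold change was 1.195 with an adjusted p of 0.171. ZIP11, a zinc importer of the nucleus and Golgi, had 6.70, 10.1 and 7.45 FPKM at LOC117423027 (NC_081205.1, 4925711 to 5064460) with Limnodrilus, against 1.10, 2.28 and 2.69 FPKM with commercial feed. The groups were apart, and the log2 fold change was 1.61 ± 0.34 with an adjusted p of 0.0210 by limma. The calls of LOC117432899 and LOC117423027 were lost without any Limnodrilus library or without commercial feed library 2, at adjusted p of 0.0575 to 0.0845 and 0.0528 to 0.0840.

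**Figure D3:**
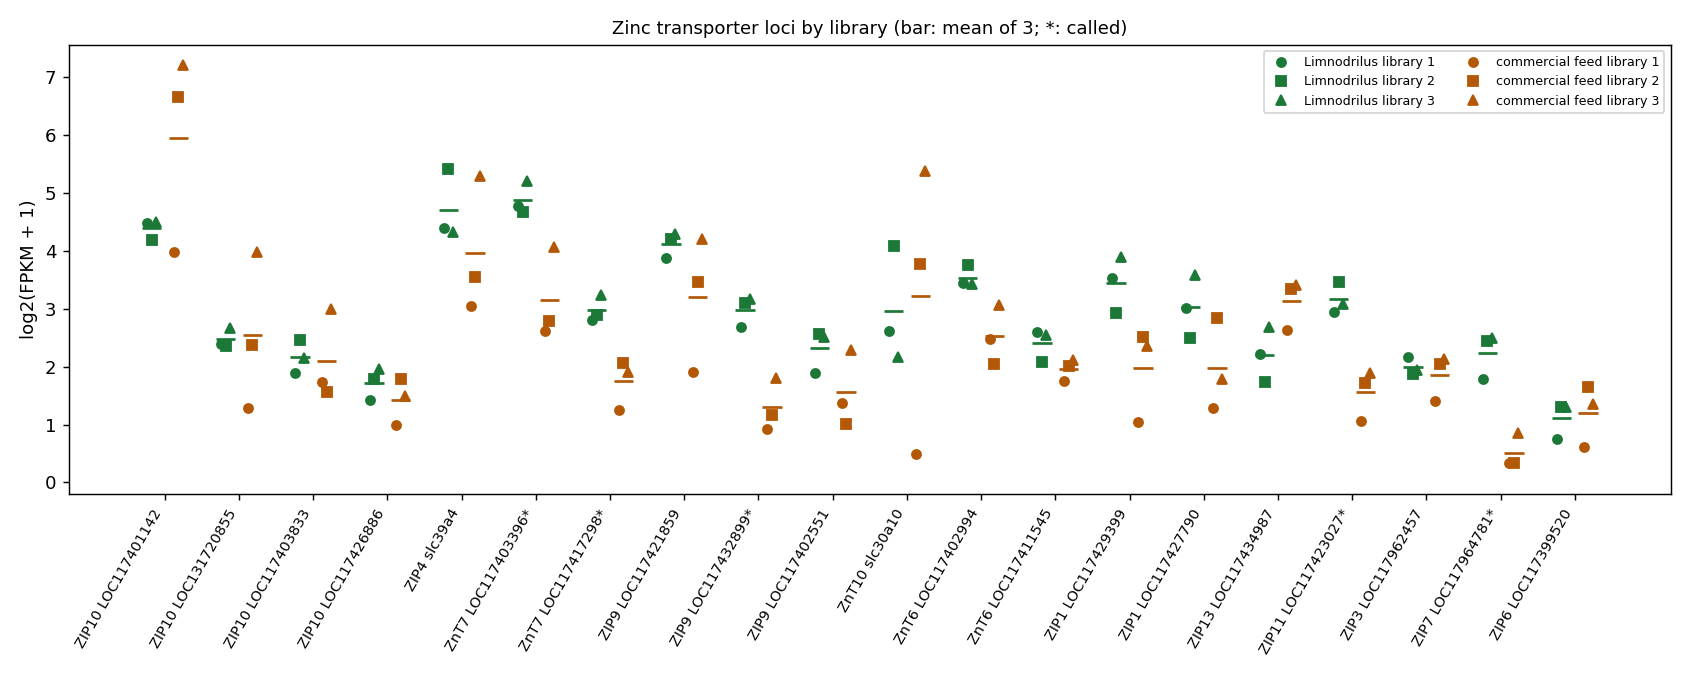
Log2(FPKM + 1) of the 20 tested zinc transporter loci in each library; points are libraries, bars are means of 3, and asterisks mark called loci. ZnT7, ZIP11 and ZIP7 stand higher in the Limnodrilus libraries, and ZIP10 locus LOC117401142 has its 2 highest values in commercial feed libraries 2 and 3.

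The other 12 tested ZIP loci were not called. ZIP4, the main zinc importer of the mammalian brush border, had 20.04, 41.6 and 19.2 FPKM at slc39a4 with Limnodrilus, against 7.25, 10.8 and 38.3 FPKM with commercial feed. The groups overlapped through commercial feed library 3, and the adjusted p was 0.433 by limma. ZIP10, an importer of the plasma membrane in mammals, had the most abundant ZIP locus, LOC117401142 (NC_081230.1, 10109628 to 10119418), with 21.4, 17.2 and 21.6 FPKM with Limnodrilus, against 14.8, 99.9 and 148 FPKM with commercial feed. The Limnodrilus libraries lay close together and between commercial feed library 1 and the other two. The log2 fold change was -1.56 ± 0.78, with an adjusted p of 0.202 by limma. It was -2.55 with an adjusted p of 0.0167 without commercial feed library 1, and -0.93 with an adjusted p of 0.367 without commercial feed library 3. The commercial feed mean was 87.7 FPKM, and 57.3 FPKM without library 3.

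The other 3 ZIP10 loci had 14.9 FPKM or less in any library and were not called. Together the 4 ZIP10 loci held 27.3%, 21.0% and 24.8% of the summed ZIP FPKM in Limnodrilus libraries 1, 2 and 3, against 43.7%, 67.8% and 66.4% in commercial feed libraries 1, 2 and 3, without overlap. Their summed level did overlap, at 30.0, 28.3 and 33.3 FPKM with Limnodrilus, against 19.6, 109 and 172 FPKM with commercial feed. In commercial feed library 1 the summed level of all ZIP loci was also the lowest, at 44.8 FPKM, and a share depends on that sum. ZIP13, which works in the early secretory pathway of connective tissue cells, had 3.64, 2.31 and 5.46 FPKM at LOC117434987 with Limnodrilus, against 5.24, 9.16 and 9.64 FPKM with commercial feed; its log2 fold change of -0.92 was not called (adjusted p 0.132 by limma), but it was at -1.18 with an adjusted p of 0.0421 under median-of-ratios scaling. ZIP1, a plasma membrane importer, had 10.6, 6.59 and 13.9 FPKM at LOC117429399 with Limnodrilus, against 1.05, 4.74 and 4.14 FPKM with commercial feed, with no overlap and an adjusted p of 0.0708 by limma. ZIP3 and ZIP6 had 1 tested locus each, not called, and both ZIP12 loci had at most 0.173 FPKM.

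**Figure D4:**
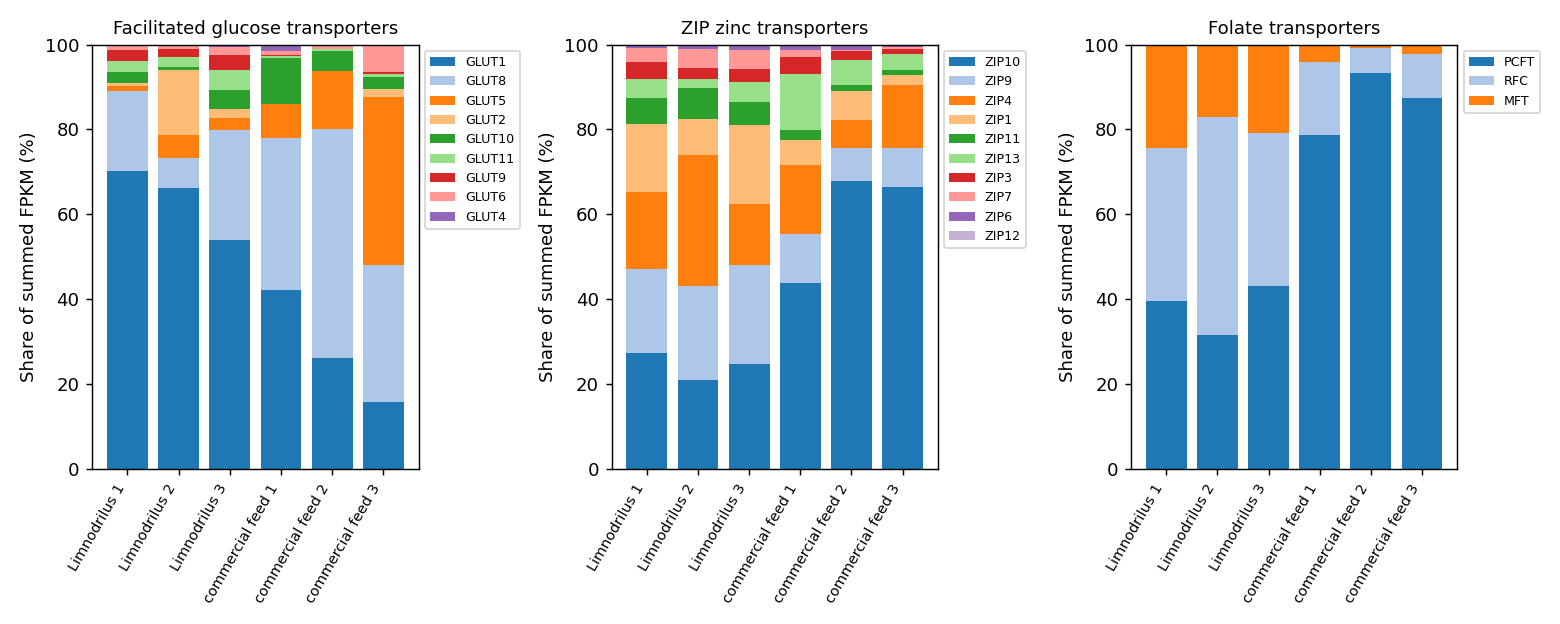
Share of the summed FPKM of the facilitated glucose, ZIP and folate transporters held by each kind of transporter, in percent, in each of the 6 libraries. GLUT1 takes 53.9% to 70.1% with Limnodrilus and 15.7% to 42.3% with commercial feed. ZIP10 and PCFT take larger shares with commercial feed than with Limnodrilus, while the summed ZIP10 level overlaps between diets.

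Metallothionein, the zinc and copper store that is induced by these metals in vertebrates, was carried by mt2 (NC_081207.1, 30174686 to 30175767). It had 68.02, 93.4 and 61.3 FPKM in Limnodrilus libraries 1, 2 and 3, against 96.2, 955 and 43.6 FPKM in commercial feed libraries 1, 2 and 3. The range of the commercial feed libraries enclosed that of the Limnodrilus libraries, and library 2 alone set its mean of 365 FPKM, which was 69.9 FPKM without it. The log2 fold change was -1.12 ± 1.01 with an adjusted p of 0.471 by limma, and 0.17 with an adjusted p of 0.836 without commercial feed library 2. The other match, tesmin, is a testis protein that holds the word in its product name only, and it had at most 0.169 FPKM in any library.

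Other proteins of zinc and copper handling gave 4 of 22 tested features called higher (18.2%, where 14% of all tested features were) and 0 lower (3.64% of all) by limma, with a median log2 fold change of 0.93; 9 had an unadjusted p under 0.05 and were higher, 0 were lower, and limma-voom called 5 higher and 0 lower. The divalent metal carrier LOC117966962, annotated as natural resistance-associated macrophage protein 2-like, had 3.52, 8.05 and 2.08 FPKM with Limnodrilus, against 0.0434, 0 and 0 FPKM with commercial feed. The copper pump LOC117430432, a copper-transporting ATPase 1-like locus that in mammals exports copper from enterocytes, had 5.84, 6.54 and 4.69 FPKM with Limnodrilus, against 0.394, 0.546 and 1.99 FPKM with commercial feed. In both loci every Limnodrilus library lay above every commercial feed library, with adjusted p of 0.0154 and 0.0193 by limma. A more abundant locus of each product overlapped between diets and was not called. For the metal carrier, LOC117401148 had 5.44, 5.80 and 3.73 FPKM with Limnodrilus, against 1.82, 3.21 and 6.43 FPKM with commercial feed. For the copper pump, LOC117963265 had 6.33, 6.26 and 4.14 FPKM with Limnodrilus, against 1.97, 5.52 and 5.60 FPKM with commercial feed. The copper- and zinc-bearing enzyme sod1, which removes superoxide, had a log2 fold change of 2.07 ± 0.46, while LOC117406473, its most abundant relative, had one of 1.01 and was not called. The fourth was LOC117397853, a ZIP14 metal importer, with a log2 fold change of 1.25, which falls outside the naming rule. Another ZIP14-like locus, LOC117962951, had a log2 fold change of -0.70 and was not called.

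Folate transporters differed in sign. The proton-coupled folate transporter PCFT, the acid-driven carrier through which the mammalian upper intestine takes up folate, had 2 loci that lay lower in every Limnodrilus library. LOC117429152 (NC_081212.1, 3405176 to 3411114) had 6.84, 6.06 and 8.76 FPKM with Limnodrilus, against 10.995, 35.8 and 55.8 FPKM with commercial feed. LOC117430320 (NC_081214.1, 3409443 to 3415561) had 4.23, 5.24 and 5.58 FPKM with Limnodrilus, against 8.29, 26.7 and 40.6 FPKM with commercial feed. With the GLUT5-like LOC117432243 they are the 3 of the 48 loci whose Limnodrilus libraries were all lower.

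The PCFT log2 fold changes were -1.85 ± 0.57 and -1.88 ± 0.55 (SE, n = 3 per diet), with adjusted p of 0.0610 and 0.0521 by limma, so neither was called. Under median-of-ratios scaling they were -2.13 and -2.15, with adjusted p of 0.0297 and 0.0278, and without commercial feed library 1 they were -2.49 and -2.50, with adjusted p of 0.0172 and 0.0167. Without commercial feed library 3 they were -1.37 and -1.42, with adjusted p of 0.0836 and 0.0699, and without any one of the Limnodrilus libraries the adjusted p was 0.134 to 0.174. The pair kept nearly one ratio, LOC117429152 standing at 1.62, 1.16 and 1.57 times LOC117430320 in the Limnodrilus libraries and at 1.33, 1.34 and 1.37 times in the commercial feed libraries. LOC117429152 shares the stretch from 3409767 to 3411114 with a solute carrier family 13 member 2-like locus, LOC117429127, which had 62.2, 55.2 and 36.7 FPKM with Limnodrilus, against 4.76, 4.59 and 73.0 FPKM with commercial feed.

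The other folate carriers stood higher or level with Limnodrilus. The mitochondrial folate carrier LOC117435591 (NC_081191.1, 17565617 to 17570827) had 6.85, 6.10 and 6.97 FPKM with Limnodrilus, against 1.00, 0.579 and 2.47 FPKM with commercial feed. The Limnodrilus libraries agreed closely and lay above all commercial feed libraries, and the log2 fold change was 1.78 ± 0.36 with an adjusted p of 0.0191 by limma. That p was 0.0687 to 0.0805 without one of the Limnodrilus libraries and 0.0543 without commercial feed library 2; the commercial feed mean was 1.35 FPKM, and 0.792 FPKM without library 3. The reduced folate carrier, which serves most cells, had 5.52, 9.31 and 6.65 FPKM at slc19a1 with Limnodrilus, against 3.35, 2.15 and 6.37 FPKM with commercial feed. Its other locus, LOC117426349, had 4.60, 9.25 and 5.30 FPKM with Limnodrilus, against 0.838, 1.72 and 5.14 FPKM with commercial feed, and neither was called. PCFT held 39.5%, 31.4% and 43.1% of the summed folate transporter FPKM with Limnodrilus, against 78.8%, 93.4% and 87.3% with commercial feed, without overlap.

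Thiamine transporter 1 was called at 1 of its 2 tested loci. LOC117405250 (NC_081197.1, 44603175 to 44611126) had 4.64, 2.46 and 5.97 FPKM with Limnodrilus, against 0.423, 0.719 and 1.25 FPKM with commercial feed. The groups did not overlap, and the log2 fold change was 1.54 ± 0.37 with an adjusted p of 0.0301 by limma; that p was 0.0538 to 0.115 without one of the Limnodrilus libraries, 0.0651 and 0.0763 without commercial feed library 1 or 2, 0.0613 with no filter and 0.0621 by limma-voom. LOC117423668 (NC_081205.1, 26264009 to 26268570) had 2.98, 12.4 and 5.05 FPKM with Limnodrilus, against 0, 0.252 and 2.63 FPKM with commercial feed. It lay higher in every Limnodrilus library, with a log2 fold change of 2.05 ± 0.62 and an adjusted p of 0.0571 by limma; its Limnodrilus mean was 6.81 FPKM, and 4.01 FPKM without library 2.

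Riboflavin transporters gave 0 calls among 2 tested loci, with 1 unadjusted p under 0.05 and 0 calls by limma-voom. LOC117400652, of the widely expressed kind 2, had 2.71, 2.62 and 2.54 FPKM with Limnodrilus, against 1.28, 1.15 and 1.396 FPKM with commercial feed. Libraries differed little within each diet and did not overlap between them, and the log2 fold change was 0.67 ± 0.27 with an adjusted p of 0.126 by limma. LOC117422231, of the intestinal kind 3, had 0.0681, 0.912 and 0.776 FPKM with Limnodrilus, against 0, 0 and 5.22 FPKM with commercial feed, where library 3 alone carried the signal.

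**Figure D5:**
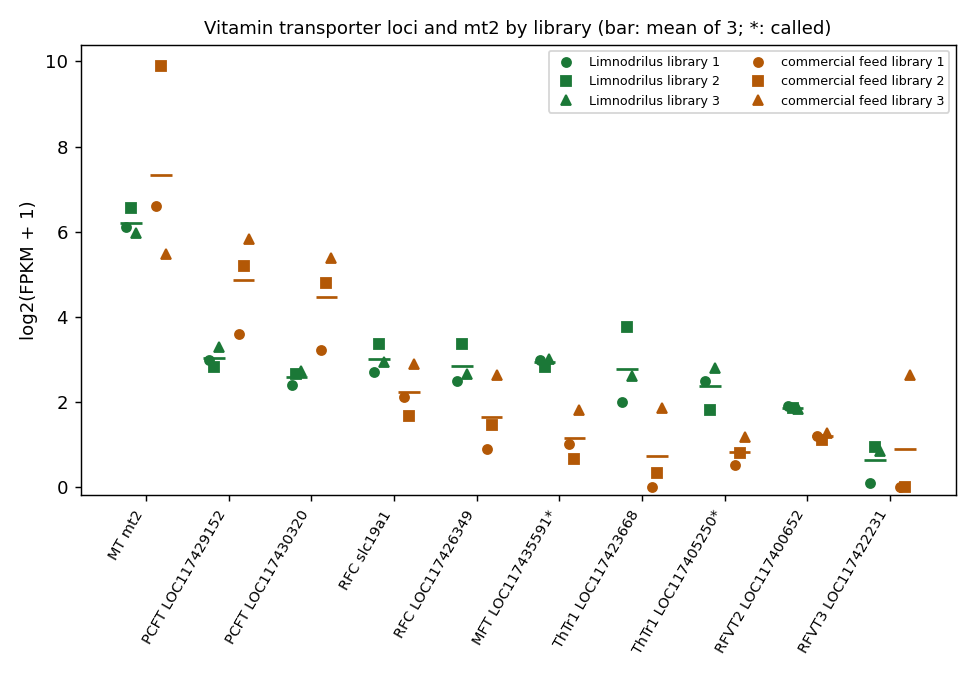
Log2(FPKM + 1) of mt2 and the 9 tested vitamin transporter loci in each library; points are libraries, bars are means of 3, and asterisks mark called loci. Both PCFT loci sit lower in the Limnodrilus libraries, the mitochondrial folate carrier (MFT) and LOC117405250 (ThTr1) higher, and mt2 is highest in commercial feed library 2.

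Enzymes and binding proteins that handle these vitamins gave 3 of 31 tested features called higher (9.68%, where 14% of all tested features were) and 0 lower (3.64% of all) by limma, with a median log2 fold change of 0.29; 7 had an unadjusted p under 0.05 and were higher, 0 were lower, and limma-voom called 3 higher and 0 lower. The gene rfk, which makes the first cofactor form of riboflavin, had 4.798, 10.5 and 6.24 FPKM with Limnodrilus, against 0.532, 1.25 and 0.873 FPKM with commercial feed. It lay higher in every Limnodrilus library, with a log2 fold change of 2.07 ± 0.36 and an adjusted p of 0.0129 by limma. Pantothenate kinase 3 (LOC117431569), the entry enzyme of coenzyme A synthesis, had a log2 fold change of 1.85 ± 0.49, and the vitamin B12 carrier transcobalamin-2-like LOC117426841 had 2.29 ± 0.61. A more abundant transcobalamin-2-like locus, LOC117427698, had 106, 48.7 and 39.1 FPKM with Limnodrilus, against 6.24, 161 and 80.1 FPKM with commercial feed, and was not called.

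The 26 loci below the filter were 13 GLUT, 7 ZIP, 2 SGLT2, 1 ZnT, 1 thiamine and 1 riboflavin transporter and tesmin, and 5 of them were listed at 0 in all libraries. The highest mean among them was 0.801 FPKM, at the GLUT11-like LOC131699056, which had 0.685, 1.38 and 2.16 FPKM with Limnodrilus, against 0.251, 0 and 0.330 FPKM with commercial feed. The lowest mean among the tested loci was 1.03 FPKM, at the GLUT6-like LOC117422497, which had 0.437, 0.635 and 1.07 FPKM with Limnodrilus, against 0.0691, 0.215 and 3.74 FPKM with commercial feed. Every Limnodrilus library lay above every commercial feed library at 7 of the 26 and below at 1. Among all tested features 28.4% and 11.5% did so. The shares among all features below the filter were not computed. The GLUT11-like LOC117412536 was listed at 0 in all commercial feed libraries and had 0.274, 0.166 and 0.414 FPKM with Limnodrilus, at least 1.79-fold higher against a floor of 3 reads per library.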

How the data were processed

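Poly(A) RNA of 3 gut libraries per diet was measured. The authors deposited FPKM values in 1 table of 82023 features with feature lengths. The submitters' processing notes list cutadapt 1.9 and the mouse build mm10, whose sequence names are not those of the table. Not given in the sources used here were the aligner, the counter, the strand setting and the sturgeon assembly. Coordinates follow the table. FPKM times length came out as whole reads, within 0.1, for 100% of values up to 20 reads and 88.7% to 95.2% of all values, which gave the depths; floors of 3 reads cover counting error only.

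Computed here were log2(FPKM + 1) values of features averaging 1 FPKM or more, compared with limma 3.58.1 in R 4.3.3 (trend, 2-sided, Benjamini-Hochberg over all 23644 tested). The fold change is on the log2(FPKM + 1) scale and understates changes of low features. The count test named in the plan was dropped, since FPKM values are not counts. The test was tried on simulated data. Intervals are 95%.

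The loci and lists were chosen with earlier results of these data known. All 74 loci are accounted for. Values are given in full by a rule: from each class the called loci, up to 6, the most abundant and the one of largest change, the loci nearest the filter, and from each partner list up to 3 called features and the most abundant. Other loci were added to describe whole families, after their values were seen. Alternatives tried were another pseudocount, no filter or a stricter one, median-of-ratios and quantile scaling, no trend, limma-voom and a replicate block. Others were leaving out libraries, removing features named for rRNA or tRNA and mitochondrial features, and summing loci of one product.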

Additional observations from a re-analysis of the deposited data

How the results depend on the processing

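With all libraries 4182 features were called. Without 1 library there were 638 to 6295 (the highest without commercial feed library 3), of the loci described 1 to 18 were called higher and 0 to 3 lower, with 1 to 8 sugar, 0 to 6 zinc and 0 to 4 vitamin transporters called. Over all features, leaving out 1 library gave 563 to 4883 higher and 66 to 1412 lower calls. A minimum of 5 FPKM gave 2625 features, 5 loci higher and 1 lower, with 2 zinc and 1 vitamin transporters, since fewer loci were tested. Of all 11863 features tested at that minimum, 1992 were called higher and 633 lower. Median-of-ratios and quantile scaling each gave 3 lower loci and 4 vitamin transporters called. Of all 23644 tested features, they called 1492 and 1643 lower, and 3727 and 3941 in either direction. Removing features named for rRNA or tRNA and mitochondrial features gave 2 lower loci and 4 vitamin transporters. Of all 23537 features tested in that fit, 3147 were called higher and 1027 lower. Limma-voom called 1 vitamin transporter. With loci of one product summed, 2317 products were called. A fit without commercial feed libraries 1 and 2 together leaves 1 commercial feed library, which is then assumed to vary like the others. Its calls are therefore not listed in this section. The cause of these changes was not tested.

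With the replicate number as a block, 2607 features and 9 loci higher and 1 lower were called. Over all features the block gave 2107 higher and 500 lower calls. Same-numbered libraries deviated from their diet means with correlations of 0.187, -0.069 and 0.075, so the libraries were not treated as paired. The fold change of mt2 reversed to 0.17 without commercial feed library 2, the upper end of a range that starts at -2.04 without library 3, and to 0.73 without libraries 1 and 2. That of LOC117422497 reversed to 0.39 at a pseudocount of 0.1 and 0.70 by limma-voom and, leaving out 1 library at a time, ranged over -0.50 to 0.57, with 0.0045 when Limnodrilus library 1 was the one left out. Depth limits the loci below 1 FPKM, where 3 reads on 1 kb are 0.153 to 0.216 FPKM with Limnodrilus and 0.286 to 0.302 FPKM with commercial feed.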

Other observations

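Loci of the same families whose product carries another name were looked up after the table had been seen, and they were not counted above. Of 36 such loci 24 were tested, 6 were called higher (25%, where 14% of all tested features were) and 0 lower (3.64% of all) by limma, with a median log2 fold change of 0.49; 7 had an unadjusted p under 0.05 and were higher, 0 were lower, and limma-voom called 6 higher and 0 lower. At 9 loci every Limnodrilus library was the higher, as at 28.4% of all tested features, and at 3 the lower, as at 11.5% of all. The high affinity copper uptake protein LOC117396896, which brings copper into the cell, had 13.1, 31.4 and 16.2 FPKM with Limnodrilus, against 1.07, 0.443 and 0.420 FPKM with commercial feed, a log2 fold change of 3.62 with an adjusted p of 0.00758 by limma. Its more abundant relative LOC117973951 had 101, 122 and 89.2 FPKM with Limnodrilus, against 11.1, 143 and 75.7 FPKM with commercial feed, and was not called. Both tested SLC30A1-like loci, the zinc exporter of the plasma membrane whose mammalian gene responds to zinc, were called: LOC117403105 had 6.15, 7.40 and 4.43 FPKM with Limnodrilus, against 0.244, 0.285 and 0.0902 FPKM with commercial feed, and LOC117411303 had 6.25, 7.62 and 4.25 FPKM with Limnodrilus, against 0.698, 0.392 and 0.613 FPKM with commercial feed. The remaining called loci were an SLC30A4 locus (LOC117429036), an SLC30A10-like locus (LOC117403117) and the urate carrier relative slc2a9l2, with log2 fold changes of 1.52, 2.01 and 1.45.

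The vitamin C carrier slc23a1 had 8.02, 9.22 and 5.31 FPKM with Limnodrilus, against 0.683, 9.45 and 60.3 FPKM with commercial feed, and the riboflavin carrier slc52a3 had 1.46, 3.51 and 4.51 FPKM with Limnodrilus, against 0.272, 2.03 and 25.6 FPKM with commercial feed. Neither was called, and in both commercial feed library 3 was the highest of all 6 libraries. The multivitamin carrier slc5a6a, which takes up biotin and pantothenate, had 14.9, 12.1 and 12.8 FPKM with Limnodrilus, against 1.42, 7.56 and 5.96 FPKM with commercial feed, with no overlap and an adjusted p of 0.0824 by limma.

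The other marker lists gave 0 of 26 tested exocrine pancreas, 1 of 8 leukocyte, 1 of 3 erythrocyte and 0 of 8 hepatocyte features called higher by limma. The enterocyte list gave 4 of 19 and the smooth muscle list 0 of 17, where 14% of all tested features were called higher. In these 6 lists 0 features were called lower, where 3.64% of all were. At an unadjusted p under 0.05, 3 pancreas, 2 leukocyte, 1 erythrocyte, 0 hepatocyte, 12 enterocyte and 1 smooth muscle features were higher and 0 were lower. Limma-voom called 0, 1, 1, 0, 3 and 0 of them higher, in the same order, and 0 lower. Summed levels of these lists still differed widely among libraries. Pancreas markers summed to 607 to 1318 FPKM with Limnodrilus and 84.9 to 3257 FPKM with commercial feed. Leukocyte markers summed to 108 to 163 FPKM, against 15.4, 24.2 and 180 FPKM. Erythrocyte markers summed to 91.5 to 350 FPKM, against 7.51 to 572 FPKM, and hepatocyte markers to 15.0 to 95.5 FPKM, against 8.74 to 47.3 FPKM.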
